A study of Arabidopsis thaliana with 21 samples.

Results

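Germination of Arabidopsis thaliana, cultivar Col-0, was followed here by its net effect on transcript levels, as the difference between the seed whose radicle has just come out and the dry seed it started from. The radicle protrusion stage (RP) is the seed in which the embryonic root has broken through the endosperm, and the dry seed stage (DS) is the mature seed at rest. Each stage had 3 arrays, so that 6 of the 21 arrays of a series of 7 stages carry the comparison, and both stages are wild-type material with no transgene or mutation named in the labels. Per the labels, imbibed seeds lay 72 h in the cold at 4 °C on wet filter paper before they were moved to constant white light at 22 °C, and 3000 seeds were picked under a stereomicroscope for each sample. A replicate was a bulk of seeds from 3 to 4 plants, so each value is an average over whole seeds, and a lower level can come from fewer cells of a type or from less RNA per cell, which cannot be told apart. Arrays of 2 stages in between, seed imbibed for 6 h (6H) and testa rupture (TR), show by which stage a net change took place. The labels do not say from when the 6 h count, or how they relate to the 72 h in the cold. The name 6H is therefore read as a stage and not as a time since the seed was wetted.

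A mature Arabidopsis seed holds an embryo filled with storage protein and oil, wrapped in a living endosperm layer and a dead seed coat. Abscisic acid (ABA) builds up during maturation, drives the genes for reserves and desiccation tolerance and holds germination back. Gibberellin (GA) promotes it by causing the destruction of DELLA repressor proteins, after which cell walls loosen in the endosperm and in the lower axis of the embryo. The radicle emerges mainly by cell elongation, and the reserves feed the seedling until it can photosynthesise.

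Values are log2 RMA signals, a level is the mean of 3 arrays, and a change, in log2 units, is the RP mean minus the DS mean ± the standard error that limma gave (n = 3 arrays per stage). A gene is said to have risen or fallen when the Benjamini-Hochberg adjusted p over all 27789 genes was under 0.05 and the change was at least 1, which is 2-fold. Levels under 3.47, the 30th percentile of all values, were taken as near the signal floor, and a change to or from such a level is read as a lower bound. Replicate arrays correlated across genes at 0.9915 to 0.9941 at RP and at 0.9808 to 0.9908 at DS, where genes are not independent replicates. DS replicate 2 stood apart from the other DS arrays, with the lowest weight of the 21 arrays (0.316) when limma estimated array quality. Without it the counts over all genes were 5681 rises and 4984 falls, and no gene list below gained or lost more than 1 called member in a direction.

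Between dry seed and radicle protrusion many genes changed: 5692 rose (20.5% of all genes tested) and 4829 fell (17.4%). Together these were 10521 genes, or 37.9%. On all but a few of them the arrays did not overlap, since the 3 RP arrays lay above the 3 DS arrays for 5688 of the genes that rose and below them for 4821 of those that fell. Over all genes tested the arrays lay apart in these directions for 32.3% and 40.2%. The falls reached further than the rises. At least 128-fold falls were seen in 59 genes and a rise of that size in 1, whereas 4-fold changes were more often rises, 2710 against 1767 falls. The largest fall was -8.26 and the largest rise 7.13. Counts in the gene lists and classes below are to be read against the 20.5% and 17.4% of all genes.

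Of the genes that rose, 1252 were near the floor at DS, and of those that fell 1025 were near it at RP. A further 5892 genes were near the floor at both stages. How arrays are put on a common scale set the balance of the directions. Rises were 54.1% of the changed genes in the deposited values, where the median change of all genes was -0.21. They were 51.1% after a further quantile normalization, 35.1% with arrays centred on the median of all genes and 36.5% with arrays centred on 10 reference genes. In the last 2 settings the median of all genes moved to -0.61 and -0.58, so small changes are best read against this shift.

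**Figure D1:**
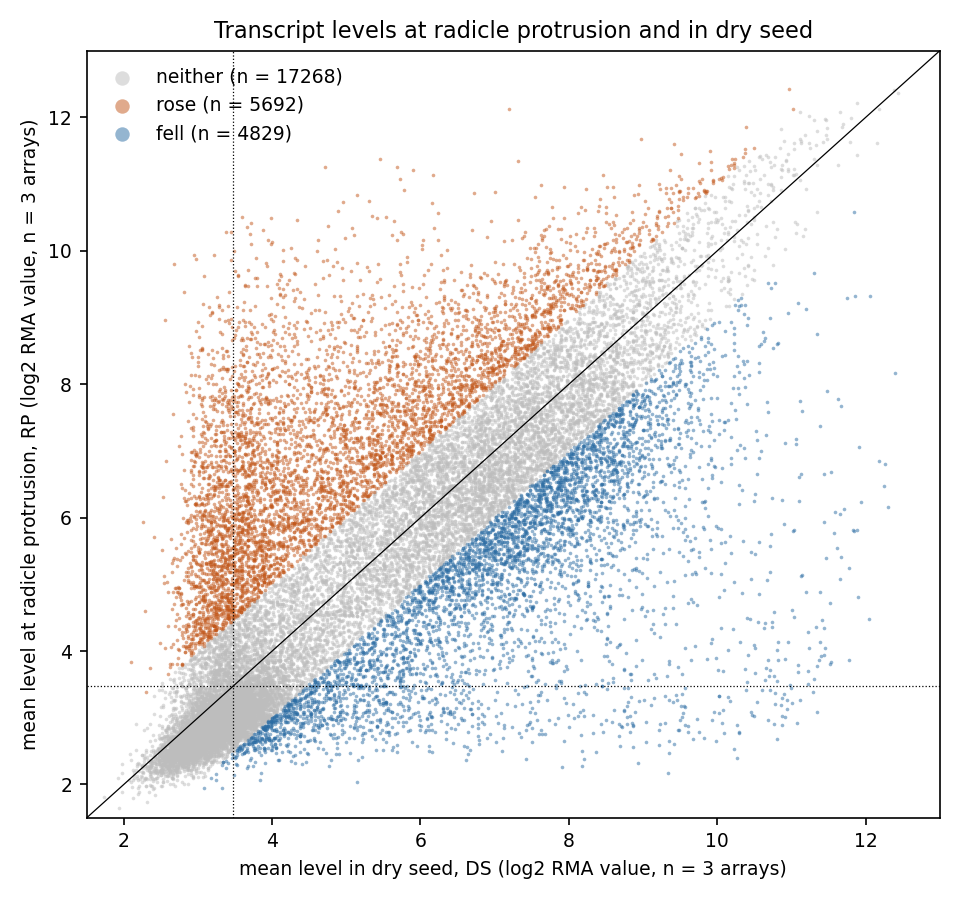
Mean level of each of 27789 genes at RP (vertical axis) and DS (horizontal axis), both as log2 RMA values over 3 arrays, with genes that rose in orange, genes that fell in blue and the others in grey. The solid line marks equal levels and the dotted lines the near-floor level of 3.47, and the blue cloud reaches further from the diagonal than the orange one.

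The 12 largest falls took genes among the brightest of the dry seed down to the floor. BGLU19, a beta-glucosidase, gave 3.1, 2.6 and 3.53 on the RP arrays, against 11.32, 11.3 and 11.39 on the DS arrays, a change of -8.26 ± 0.29 (adjusted p = 1.9e-15). MLP31, of the major latex protein-like family, gave 2.69, 3.15 and 2.92 at RP, against 10.97, 11.15 and 11.1 at DS, a change of -8.16 ± 0.24 (adjusted p = 2.9e-16). No RP array came within 7 log2 units of any DS array for either gene. AtMT4b, a metallothionein of seeds, changed by -7.99 ± 0.28, PARP3, a poly(ADP-ribose) polymerase, by -7.92 ± 0.19 and the LEA protein gene ATECP31 by -7.9 ± 0.24. The other 7, given by locus because the reference table holds no symbol for them, were AT1G47980, AT4G31830, AT1G54860, AT2G38905, AT1G27990, AT2G42560 and AT4G25580, with changes of -8.13 to -7.8. Of the 12, PARP3 alone had a level above the floor at RP (3.86). SDH2-3, an iron-sulphur subunit of succinate dehydrogenase chosen after its values were seen, belongs with them, with 3.77, 3.68 and 3.7 at RP, against 10.75, 10.61 and 10.77 at DS (-6.99 ± 0.26, adjusted p = 4.6e-15).

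Among the 12 largest rises were wall enzymes, a Rubisco subunit and a light-stress protein. BXL2 and BXL1 are beta-xylosidases that trim wall polysaccharides. BXL2 gave 10.19, 10.35 and 10.34 at RP, against 2.98, 4.11 and 3.24 at DS, a change of 6.85 ± 0.21 (adjusted p = 3.4e-16). BXL1 gave 10.36, 10.43 and 10.47 at RP, against 3.23, 4.6 and 3.32 at DS (6.71 ± 0.25). All RP arrays of both lay far above the DS arrays, of which replicate 2 was the highest. ELIP2, an early light-induced protein of the thylakoid, rose by 6.92 ± 0.18, RBCS1B, a small subunit of Rubisco, by 6.9 ± 0.27, the methyltransferase gene HOL1 by 6.69 ± 0.22 and the beta-glucosidase gene BGLU21 by 6.55 ± 0.24. The largest rise of all was in AT4G21870, with 9.65, 10.05 and 9.74 at RP, against 2.39, 3.15 and 2.49 at DS (7.13 ± 0.17). AT5G57760, AT2G45180, AT5G01870, AT1G06360 and AT5G45670 changed by 6.98 to 6.55.

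Storage protein genes fell in 9 of 9 members counted, with a median change of -5.6. Loci that were listed but have no name in the reference table are left out of list counts here, and with 4 such loci 13 of 13 fell. The list median was 5.79 ± 0.24 at RP and 11.69 ± 0.11 at DS (SD over 3 arrays). CRA1, a cruciferin of the globulin type, gave 6.61, 6.28 and 6.51 at RP, against 12.19, 12.3 and 12.25 at DS (-5.78 ± 0.29, adjusted p = 4.0e-13). SESA4, a 2S albumin, gave 3.99, 3.69 and 3.73 at RP, against 11.4, 11.56 and 11.59 at DS (-7.71 ± 0.33, adjusted p = 4.1e-14). Neither gene had overlapping arrays, and CRU2 (-7.58 ± 0.35) and SESA5 (-6.58 ± 0.55) fell as well. At 6H these genes were still high, at 11.88 for CRA1 and 10.5 for SESA4. None of the 9 was near the floor at RP, so storage transcripts were still measurable in the emerged seed.

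The coat proteins of oil bodies fell in the same way, in 5 of 5 members counted, with a median of -6.83. With 4 listed loci that have no name in the reference table, 8 of 9 fell and 1 rose. OLEO1, the main oleosin of the seed, gave 5.91, 5.08 and 5.66 at RP, against 11.53, 11.68 and 11.65 at DS (-6.07 ± 0.32, adjusted p = 6.9e-13). ATS1, a caleosin, changed by -7.49 ± 0.25, OLEO2 by -7.26 ± 0.24 and OLEO4 by -6.83 ± 0.34.

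Late embryogenesis abundant (LEA) proteins and dehydrins protect dry cells, and 14 of 20 members counted fell (median -4.11), or 20 of 26 with 6 listed loci that have no name in the reference table. EM1 gave 4.16, 3.78 and 4.12 at RP, against 10.77, 10.8 and 10.88 at DS (-6.79 ± 0.25, adjusted p = 3.9e-15). GEA6 (EM6) changed by -5.81 ± 0.43, the dehydrin gene LTI30 by -6.19 ± 0.32 and the dehydrin gene RAB18 by -5.7 ± 0.32. The list did not move as one, since 4 members rose. SAG21 gave 10.68, 10.81 and 10.89 at RP, against 7.64, 7.74 and 7.25 at DS (3.25 ± 0.12, adjusted p = 5.2e-15). COR47 (3.54 ± 0.26), ERD10 (1.93 ± 0.23) and ERD14 (1.13, and 0.73 with median-centred arrays), dehydrins induced by cold or drought in leaves, were the other risers, and COR47 and ERD10 had their highest DS value in replicate 2 (changes of 3.9 and 2.34 without it). COR15A, at 3.43 at RP and 3.91 at DS, and COR15B, at 2.81 and 2.91, did not pass the test.

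Heat shock proteins that accumulate in maturing seeds fell in 10 of 12 members, with a median of -4.66, and none rose. Another 5 listed loci have no name in the reference table and were left out, among them AT4G21870, the gene with the largest rise of all. With these, 13 of 17 fell and 1 rose. HSFA9, the seed heat shock factor, gave 2.76, 2.93 and 2.74 at RP, against 9.46, 9.49 and 9.45 at DS (-6.65 ± 0.2, adjusted p = 3.0e-16). HSP23.6-MITO, a small heat shock protein of mitochondria, changed by -6.17 ± 0.21 and HSP101, the disaggregating chaperone, by -5.71 ± 0.28. HSFA9 had lost most of its level by 6H, with means of 9.47 at DS, 3.97 at 6H, 2.81 at TR and 2.81 at RP.

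**Figure D2:**
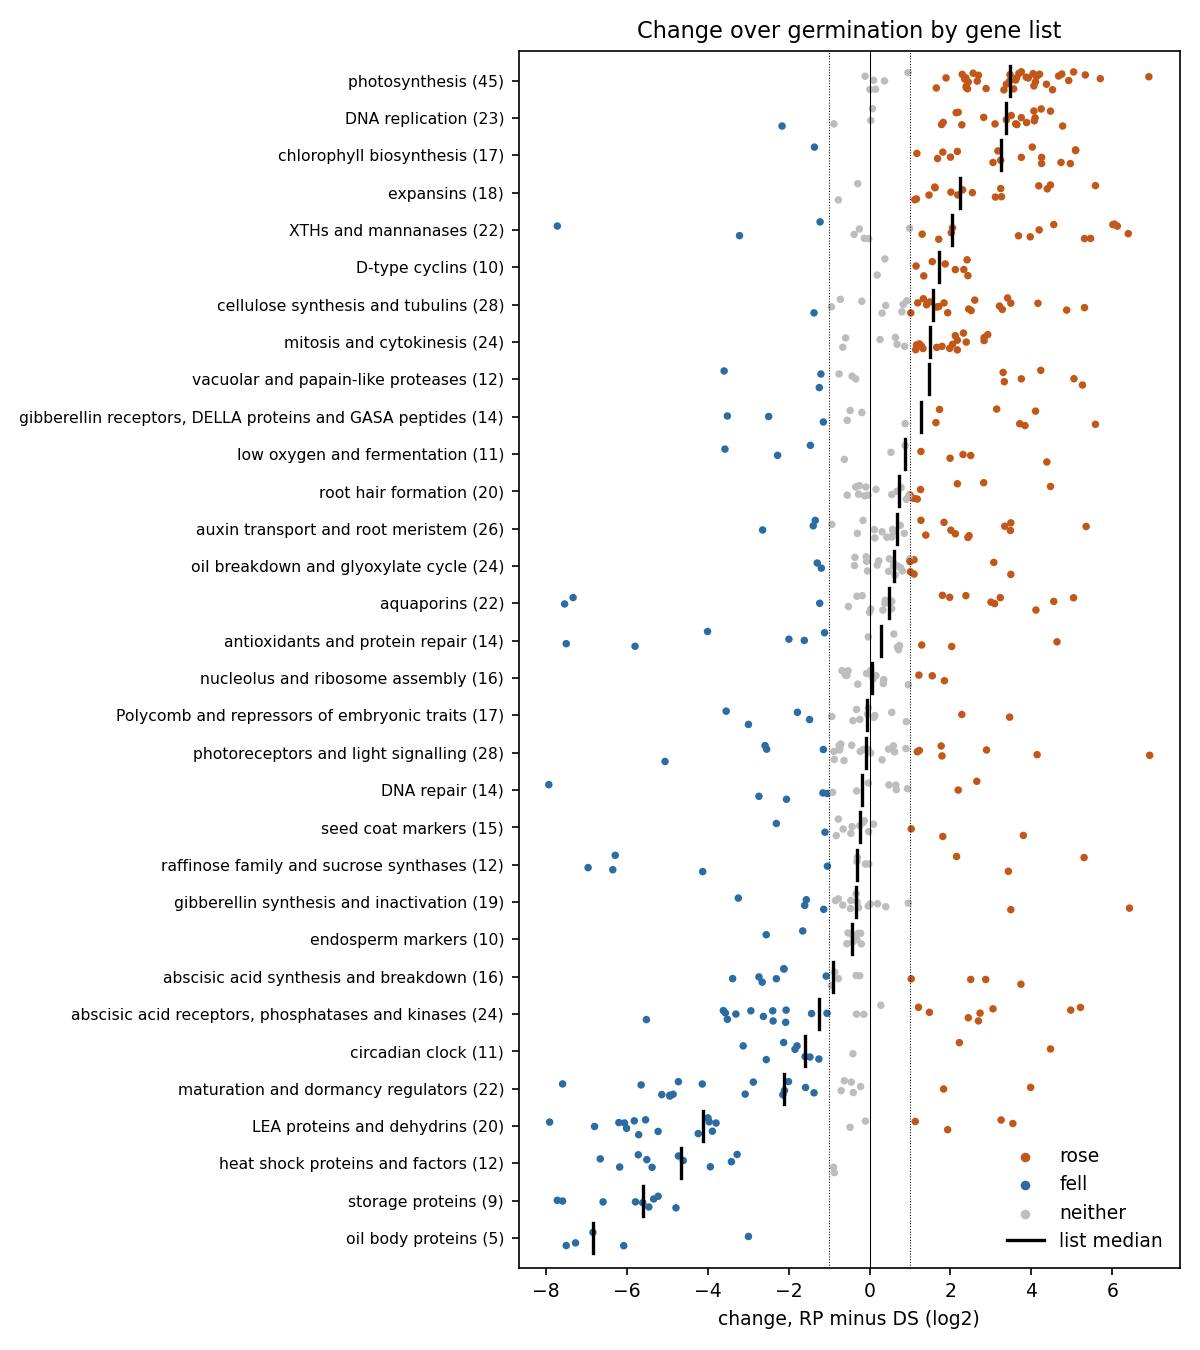
Change from DS to RP (RP minus DS, log2, horizontal axis) of every measured member of 32 gene lists, with the number of members in brackets, points in orange for genes that rose, blue for genes that fell and grey for neither, and a black bar at the list median. Oil body proteins have the lowest median (-6.83) and photosynthesis the highest (3.47), and dotted lines mark the 2-fold threshold.

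Among 22 regulators of maturation and dormancy 15 fell and 2 rose (median -2.12). DOG1, which sets the depth of dormancy, gave 2.98, 3.14 and 3.2 at RP, against 8.69, 8.75 and 8.8 at DS (-5.64 ± 0.15, adjusted p = 1.0e-16). AHG1, a phosphatase through which DOG1 and ABA act in seeds, gave 3.37, 3.26 and 3.27 at RP, against 10.84, 10.89 and 10.89 at DS (-7.58 ± 0.16, adjusted p = 6.5e-18). Neither gene was above the floor at RP. DOG1 had already dropped at 6H (means of 8.75 at DS, 4.67 at 6H, 3.08 at TR and 3.11 at RP). AHG1 was still at 9.49 at 6H and reached 5.22 at TR.

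The transcription factors of the maturation network parted ways. FUS3 gave 2.93, 2.62 and 2.72 at RP, against 7.91, 7.59 and 7.55 at DS (-4.93 ± 0.19), and ABI5 gave 5.89, 5.65 and 5.39 at RP, against 10.52, 10.55 and 10.65 at DS (-4.93 ± 0.19). ABI3 fell less, to 7.25 at RP against 9.25 at DS (-2 ± 0.13), and was at 9.6 at 6H. LEC1 was near the floor at both stages, with 2.86 at RP and 3.31 at DS, a change under 2-fold (-0.45 ± 0.2, adjusted p = 0.046). E12A11 (MFT), which links ABA and GA in seeds, changed by -5.13 ± 0.16, SOM, a repressor of light-dependent germination, by -4.85 ± 0.22 and EEL, a bZIP factor, by -4.72 ± 0.17. The 2 that rose were SPT, a bHLH factor of dormancy control, by 3.98 ± 0.17, and ABI4, an AP2 factor named for ABA insensitivity, with 8.44, 8.25 and 8.25 at RP, against 6.61, 6.51 and 6.32 at DS (1.83 ± 0.14). ABI4 was highest at 6H (9.68). BZIP25 did not pass (6.81 at RP, 7.03 at DS).

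Of 16 genes for ABA synthesis and breakdown 7 fell and 4 rose. On the side of synthesis, ABA1, the zeaxanthin epoxidase, gave 6.99, 6.72 and 6.69 at RP, against 10.22, 10.11 and 10.22 at DS (-3.38 ± 0.12, adjusted p = 4.0e-15). The carotenoid-cleaving enzymes NCED5 (-2.65 ± 0.21) and NCED9 (-2.3 ± 0.21) fell to near the floor, and NCED6 was at 3.13 at RP and 3.99 at DS (-0.86 ± 0.17). ABA4, of neoxanthin synthesis, rose by 2.5 ± 0.13.

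The hydroxylases that inactivate ABA changed in opposite directions. CYP707A2 gave 5.51, 4.71 and 4.87 at RP, against 7.83, 7.73 and 7.73 at DS (-2.73 ± 0.25, adjusted p = 3.8e-09). CYP707A1 gave 8.18, 7.57 and 7.75 at RP, against 4.8, 5.28 and 4.82 at DS (2.87 ± 0.18, adjusted p = 1.0e-11). CYP707A3 gave 7.74, 7.71 and 7.93 at RP, against 3.8, 4.18 and 4.18 at DS (3.74 ± 0.17, adjusted p = 1.2e-13). The falling member was the first in time: CYP707A2 was at 7.51 at 6H, when CYP707A1 stood at 3.25 and CYP707A3 at 4.24, and these last reached 7.38 and 7.54 at TR. CYP707A4 was near the floor at both stages (2.79 and 3.03).

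The ABA response machinery held 24 measured genes, of which 13 fell and 8 rose. Its receptors split. PYL4 gave 10.2, 10.24 and 10.14 at RP, against 5.41, 5.01 and 4.52 at DS (5.21 ± 0.15, adjusted p = 1.4e-16), and PYL6 rose by 4.97 ± 0.15. PYL12 (-3.61 ± 0.23) and PYL7 (-3.51) fell. The phosphatases that shut the pathway off mostly fell: HAI2 gave 3.64, 3.4 and 3.65 at RP, against 9.14, 9.05 and 9.03 at DS (-5.51 ± 0.27), and HAI1 changed by -3.56 ± 0.35, with ABI1 (1.48) the only phosphatase of the list that rose. Of the kinases, OST1 rose by 3.05 ± 0.21, SNRK2.3 fell (-1.05) and SNRK2.2 was at 7.74 at RP and 7.88 at DS (adjusted p = 0.39).

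**Figure D3:**
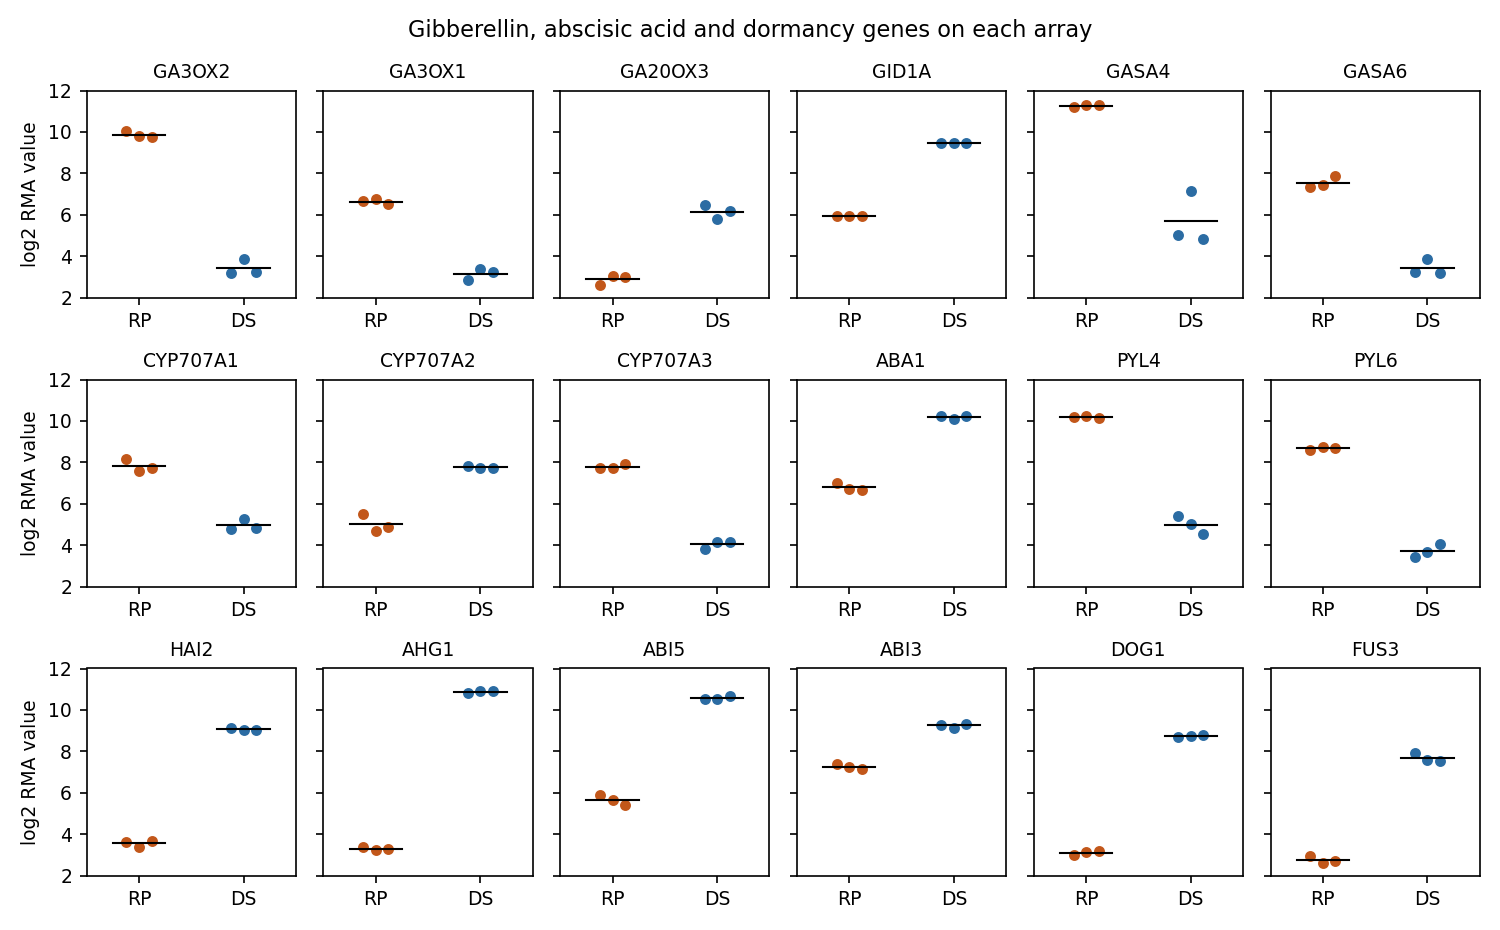
Log2 RMA value of 18 genes of gibberellin, abscisic acid and dormancy on each of the 3 RP arrays (orange, left) and the 3 DS arrays (blue, right), with a bar at the mean. All 18 genes had risen or fallen, and arrays lay apart for nearly all such genes. That no RP array overlaps a DS array in any panel therefore reflects the choice of genes. Genes of these pathways that did not pass, such as SLY1 and SNRK2.2, are not shown. GASA4 shows the spread of DS replicate 2 (7.15) from the other DS arrays.

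Of 19 genes of GA synthesis and inactivation 2 rose and 4 fell, in all close to the 37.9% called among all genes, and 8 were near the floor at RP and 9 at DS. The risers were the oxidases of the last step to active GA. GA3OX2 gave 10.05, 9.79 and 9.76 at RP, against 3.18, 3.89 and 3.26 at DS (6.42 ± 0.19, adjusted p = 2.3e-16). GA3OX1 gave 6.66, 6.74 and 6.53 at RP, against 2.84, 3.38 and 3.23 at DS (3.49 ± 0.18, adjusted p = 5.0e-13). Both peaked earlier, GA3OX2 at 10.55 and GA3OX1 at 8.64 at 6H.

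GA20OX3, which acts one step before, fell by 3.24 ± 0.18 to near the floor, after 7.59 at 6H. GA2 (-1.6 ± 0.16), GA3 (-1.56 ± 0.11) and KAO2 (-1.13), of the early steps, also fell. The inactivating oxidases, exemplified by ATGA2OX3 at 3.02 at RP and 3.29 at DS, included none that rose or fell. With arrays centred on the median of all genes, 7 genes of this list fell.

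Among 14 GA receptors, DELLA proteins and GASA peptides 7 rose and 3 fell. The receptors went both ways: GID1A gave 5.96, 5.96 and 5.96 at RP, against 9.47, 9.48 and 9.46 at DS (-3.51 ± 0.14, adjusted p = 1.7e-14), GID1C fell by 2.49 ± 0.16 and GID1B rose by 3.14 ± 0.16. Of the DELLA genes RGL1 (1.73) and RGA1 (1.64) rose, RGL3 fell (-1.14 ± 0.13), and GAI and RGL2 were under 2-fold. The GA-responsive GASA peptides rose in 4 of 4 members. GASA4 gave 11.18, 11.29 and 11.29 at RP, against 5.03, 7.15 and 4.84 at DS (5.58 ± 0.39, adjusted p = 6.8e-11, and 6.32 without DS replicate 2). GASA6 rose by 4.1 ± 0.19, GASA14 by 3.84 ± 0.14 and GASA1 by 3.71 ± 0.31, and GASA6 was higher at 6H (10.1) than at RP (7.53). SLY1, the F-box protein that targets DELLA proteins, was at 7.06 at RP and 7.25 at DS (adjusted p = 0.19).

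Expansins loosen cell walls, and 16 of 18 rose, with none that fell (median 2.24). EXPA9 gave 9.9, 9.88 and 9.89 at RP, against 4.27, 4.46 and 4.21 at DS (5.58 ± 0.12, adjusted p = 6.0e-18). EXPA2, linked to germination, gave 9.6, 9.76 and 9.74 at RP, against 5.16, 6.34 and 4.44 at DS (4.39 ± 0.35, adjusted p = 4.9e-10). The RP arrays were tight and the DS arrays of EXPA2 were not. EXPA1 (4.47 ± 0.19) and EXPA8 (3.11 ± 0.17) rose too, and EXPA1, EXPA2 and EXPA8 were all higher at 6H (9.97, 10.65 and 9.58) than at RP. The exceptions were EXLA1, at 6.58 at RP and 7.35 at DS, and EXPA16, near the floor at both.

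Xyloglucan endotransglucosylase/hydrolases (XTH), which cut and rejoin the tethers between cellulose fibrils, and mannanases gave 14 rises and 3 falls among 22 genes. XTH9 gave 9.96, 10.18 and 10.16 at RP, against 3.57, 4.03 and 3.53 at DS (6.39 ± 0.17, adjusted p = 7.9e-17). XTH31 (6.12 ± 0.38, and 6.8 without DS replicate 2), XTH4 (6.05 ± 0.21) and XTH15 (6.01 ± 0.22) rose by as much, and XTH5 by 2.05 ± 0.12. One XTH went the other way: XTH25 gave 3.84, 3.13 and 3.77 at RP, against 11.17, 11.4 and 11.32 at DS (-7.71 ± 0.35, adjusted p = 7.4e-14). The mannanases, which degrade the mannans of the endosperm wall, did not rise as a group. MAN2 rose (1.71), MAN1 (-3.21 ± 0.17) and MAN5 (-1.22 ± 0.17) fell, and MAN7 showed no net change, with 6.03, 5.85 and 5.89 at RP, against 6.07, 6.33 and 6.13 at DS (-0.25 ± 0.19, adjusted p = 0.22), although it was at 9.18 at 6H and 7.61 at TR.

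Cellulose synthesis and tubulin genes rose in 19 of 28 members and fell in 1 (median 1.58). TUB5 (5.31 ± 0.25), TUB1 (4.87 ± 0.26) and TUA4 (4.16 ± 0.25) led. CESA9, a cellulose synthase known from the seed coat, fell by 1.37 ± 0.24 to near the floor, and CESA2 and TUB2 did not pass the test (adjusted p = 0.17 and 0.43). Other wall genes were grouped from the names in the reference table, a grouping trimmed after values were seen. Of 51 arabinogalactan and fasciclin-like proteins 31 rose and 8 fell, with FLA2 at 5.96 ± 0.25 and AGP6, known from pollen, at -3.61 ± 0.16. Of 38 pectin-modifying enzymes 14 rose (36.8%) and 6 fell (15.8%). The pectin methylesterase gene PME3 gave 10.77, 10.85 and 10.89 at RP, against 5.24, 5.46 and 4.74 at DS (5.69 ± 0.13). The polygalacturonase gene PGA4 fell (-3.11 ± 0.18).

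The central enzymes that turn oil into sugar were high at both stages. Of 24 genes of oil breakdown and the glyoxylate cycle 6 rose and 2 fell, and only 2 rose with arrays centred on the median of all genes. ICL, isocitrate lyase, gave 11.63, 11.72 and 11.66 at RP, against 11.47, 11.48 and 11.48 at DS (0.19 ± 0.09, adjusted p = 0.053). MLS, malate synthase, gave 11.28, 11.4 and 11.18 at RP, against 11.3, 11.37 and 11.34 at DS (-0.05 ± 0.1, adjusted p = 0.66). PCK1, of gluconeogenesis, was at 11.45 at RP and 10.96 at DS (0.49 ± 0.09). These were among the highest levels of each stage. The genes that did rise were NHO1 (GLI1), the glycerol kinase, by 3.49 ± 0.11, PMDH2, a peroxisomal malate dehydrogenase, by 3.07 ± 0.17, and ACX2, LACS7, CSY2 and PKT4 by 1.1 to 1. AIM1, of fatty acid beta-oxidation, fell (-1.29 ± 0.09).

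Raffinose family oligosaccharides are stored in dry seeds, and of 12 genes with the sucrose synthases 5 fell and 3 rose. GolS1, a galactinol synthase, gave 4.07, 3.67 and 3.86 at RP, against 10.85, 10.78 and 10.83 at DS (-6.95 ± 0.22, adjusted p = 6.3e-16). GolS2 changed by -6.34 ± 0.19 and the sucrose synthase SUS3 by -6.28 ± 0.19. AGAL2, an alpha-galactosidase that breaks these sugars down, gave 8.61, 8.96 and 8.87 at RP, against 3.16, 4.08 and 3.29 at DS (5.3 ± 0.19, adjusted p = 3.8e-15). SUS4 (3.43 ± 0.44) and the raffinose synthase SIP1 (2.15 ± 0.16) were the other risers, and AGAL1 and SUS1 did not pass.

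In the list of low-oxygen response and fermentation 5 of 11 genes rose and 3 fell. ADH1, alcohol dehydrogenase, gave 8.37, 7.78 and 8.13 at RP, against 10.39, 10.37 and 10.31 at DS (-2.27 ± 0.27, adjusted p = 3.0e-07). PDC2, a pyruvate decarboxylase, changed by -3.57 ± 0.17 and ERF73 (HRE1), a hypoxia factor, by -1.46 ± 0.14. HB1, a haemoglobin induced by low oxygen, gave 9.97, 9.74 and 9.71 at RP, against 4.88, 6.46 and 4.93 at DS (4.38 ± 0.4, adjusted p = 5.5e-09, and 4.9 without DS replicate 2). The oxygen-sensing cysteine oxidases PCO1 (2.5 ± 0.22) and PCO2 (2.31 ± 0.36), LBD41 (1.99 ± 0.31) and PDC1 (1.27 ± 0.55, adjusted p = 0.044) rose.

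Vacuolar processing enzymes and papain-like proteases gave 6 rises and 3 falls among 12. BETA-VPE, which matures storage proteins, gave 7.68, 7.87 and 8.13 at RP, against 11.53, 11.42 and 11.51 at DS (-3.59 ± 0.14, adjusted p = 7.2e-15), and ALPHA-VPE (-1.24 ± 0.15) and GAMMA-VPE (-1.2 ± 0.13) fell as well. DELTA-VPE rose by 3.33 ± 0.24. The papain-like proteases that rose did so steeply. RD21A gave 10.31, 10.32 and 10.39 at RP, against 4.89, 5.32 and 5.02 at DS (5.26 ± 0.13, adjusted p = 3.3e-17). CEP2 changed by 5.05 ± 0.17 and ALP by 4.23 ± 0.18, and CEP2 was near the floor at 6H (2.75) and at 6.31 at TR.

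Aquaporins gave 9 rises and 3 falls among 22. The tonoplast members of protein storage vacuoles fell: TIP3;1 gave 3.73, 3.6 and 3.78 at RP, against 11.16, 11.28 and 11.24 at DS (-7.53 ± 0.27, adjusted p = 3.0e-15), and BETA-TIP changed by -7.32 ± 0.31. GAMMA-TIP, of the lytic vacuole, gave 7.86, 8.02 and 7.89 at RP, against 3.08, 3.65 and 3.38 at DS (4.55 ± 0.12, adjusted p = 7.9e-17). At the plasma membrane PIP2;8 rose by 5.04 ± 0.21 and PIP3 by 4.11 ± 0.15, and PIP1;5 fell by 1.23 ± 0.17. PIP2;4 and PIP2E did not pass the test.

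Of 14 genes for antioxidants and protein repair 6 fell and 3 rose. The list median of 0.28 has no settled sign, since it was -0.11 and -0.09 with the centred arrays. PER1, the seed peroxiredoxin, gave 3.83, 3.85 and 4.07 at RP, against 11.34, 11.45 and 11.41 at DS (-7.49 ± 0.31, adjusted p = 2.1e-14). PIMT2, which repairs aged proteins, changed by -5.79 ± 0.23, while its relative PIMT1 rose by 1.29 ± 0.13. VTE1, of vitamin E synthesis, fell by 4 ± 0.17. APX1, the cytosolic ascorbate peroxidase, rose by 4.63 ± 0.19 and the superoxide dismutase CSD1 by 2.03 ± 0.09, and the catalase CAT2 was at 10.01 at RP and 10.04 at DS (adjusted p = 0.77).

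Of 14 DNA repair genes 5 fell and 2 rose. PARP3, described above, gave 3.76, 3.86 and 3.94 at RP, against 11.73, 11.8 and 11.78 at DS. ARP, an endonuclease of base excision repair, changed by -2.73 ± 0.18 and ATM, the kinase that signals double-strand breaks, by -2.05 ± 0.1. BRCA1 (2.65 ± 0.18) and PARP2 (2.19 ± 0.2) rose, and KU80 did not pass.

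Genes of the nucleolus and ribosome assembly showed the smallest median of member changes among the growth lists, with 3 of 16 rising and none falling. This median was 0.06 and turned to -0.34 and -0.31 with the centred arrays. FIB2, a fibrillarin, rose by 1.55 ± 0.11, and RPS6 (1.85 ± 0.1) and EMB3010 (RPS6B, 1.22 ± 0.09) are ribosomal proteins of the small subunit. The median level of the list was higher in between, with 8.06 at DS, 9.48 at 6H, 9.13 at TR and 8.74 at RP. The middle member can differ between stages, so these levels need not differ by the median change. NAP57 (CBF5), a pseudouridine synthase, was at 9.33 at DS, 10.17 at 6H, 9.86 at TR and 9.49 at RP. PUM23 (-0.68 ± 0.14), TOZ (-0.6 ± 0.14) and NOF1 (-0.56 ± 0.1) were lower at RP by less than 2-fold.

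DNA replication genes rose in 19 of 23 members and fell in 1, with a median of 3.38. MCM3, of the replicative helicase, gave 8.54, 8.64 and 8.66 at RP, against 3.72, 4.33 and 3.47 at DS (4.77 ± 0.17, adjusted p = 3.1e-15). PCNA1, the sliding clamp, gave 7.64, 7.69 and 7.7 at RP, against 2.94, 3.66 and 3.01 at DS (4.47 ± 0.21, adjusted p = 1.5e-13), and MCM2 rose by 4.24 ± 0.16. These were near or little above the floor in dry seed and on all RP arrays far above it. The exceptions were E2F1, an S-phase transcription factor, which fell by 2.16 ± 0.15, RNR2A at 7.8 at RP and 8.68 at DS (-0.88 ± 0.19), and RBR1 and ORC1A, which did not pass.

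The median level of the mitotic genes came up after that of the replication genes, with 11 mitotic genes near the floor at DS. Of 24 genes of mitosis and cytokinesis 18 rose and none fell (median 1.49), and 12 rose with arrays centred on the median of all genes. Their median level was 3.58 at DS, 3.28 at 6H, 4.46 at TR and 5.26 at RP, while that of the replication list was 3.87, 5.99, 7.41 and 7.53 in the same order. HIK, a kinesin of cytokinesis, gave 5.76, 5.9 and 6.24 at RP, against 2.64, 3.58 and 2.92 at DS (2.92 ± 0.2, adjusted p = 3.6e-11). CYCB1;4 (2.83 ± 0.16) and CDC20.2 (2.83 ± 0.23) followed. Single members differed in their order. At 6H HIK (2.62) and CYCB1;4 (3.16) stood below their DS means, CDC20.2 was at 4.13 (3.14 at DS), and CYCB1;1 (5.05) was already near its RP level (5.1). CYCB1;1 rose by 1.14 ± 0.19, but by 0.75 with median-centred arrays and 0.94 without DS replicate 2, which is under 2-fold. AUR2 (5.21 at RP, 5.8 at DS) and TES (5.26 at RP, 5.92 at DS) were lower at RP by less than 2-fold.

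D-type cyclins, which start the cell cycle, rose in 8 of 10 members, led by CYCD3;1 (2.43 ± 0.17), CYCD1;1 (2.41 ± 0.15) and CYCD3;2 (2.33 ± 0.1), and CYCD7;1 was near the floor at both stages. Grouped by name, 11 of 18 core histones rose and 1 fell (HTA11 4.93 ± 0.25, HTA12 -1.22 ± 0.13), as did 12 and 2 of 23 kinesins. Of 31 proteasome subunits 11 rose and none fell, and 9 of 13 plastid and mitochondrial ribosomal proteins rose (PRPL11 2.59 ± 0.1).

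Photosynthesis genes rose in 39 of 45 members by the time the radicle was out, and none fell (median 3.47). RBCS1B gave 9.86, 10.03 and 9.76 at RP, against 2.67, 3.2 and 3.08 at DS (6.9 ± 0.27, adjusted p = 8.5e-15). RBCS2B rose by 5.7 ± 0.26 and ATPC1, of the chloroplast ATP synthase, by 5.33 ± 0.17. CAB1, a light-harvesting protein of photosystem II, gave 8.76, 8.56 and 8.77 at RP, against 3.48, 3.54 and 3.97 at DS (5.04 ± 0.25, adjusted p = 4.3e-13). Its near neighbour CAB2 was at the floor throughout, with 3.08 at RP and 2.93 at DS (adjusted p = 0.48), and values of such close paralogs can share signal. LHCA1 did not pass (adjusted p = 0.34), and LHCB4.1 was as high in dry seed (8.46) as at RP (8.35), with a dip to 6.2 at 6H.

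The list as a whole moved late, with medians of 4.37 at DS, 4.78 at 6H, 6.88 at TR and 8.28 at RP. Of 94 loci of the chloroplast genome 28 rose and none fell, with a median of 0.71 that was 0.31 with median-centred arrays. Of 100 mitochondrial loci 23 rose and none fell, with a median of 0.44 that was 0.04 with median-centred arrays. Over all genes tested 20.5% rose and 17.4% fell, so the mitochondrial rises were near the share of all genes.

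Chlorophyll biosynthesis rose in 16 of 17 members (median 3.24). GUN5, a subunit of Mg-chelatase, gave 9.09, 8.86 and 8.61 at RP, against 3.27, 4.35 and 3.66 at DS (5.09 ± 0.19, adjusted p = 4.0e-15). CRD1, which closes the fifth ring, rose by 5.09 ± 0.19 and PORB, a light-dependent protochlorophyllide reductase, by 4.96 ± 0.22. CH1 (CAO), which makes chlorophyll b, was the exception, with 6.81, 6.77 and 6.72 at RP, against 8.14, 8.05 and 8.18 at DS (-1.36 ± 0.1, adjusted p = 1.9e-10).

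Light signalling had 7 rises and 4 falls among 28 genes, and 11 falls with median-centred arrays. The early light-induced proteins rose most. ELIP2 gave 10.76, 10.42 and 10.36 at RP, against 3.29, 4.09 and 3.39 at DS. ELIP1 gave 11.23, 10.88 and 10.47 at RP, against 6.69, 6.73 and 6.74 at DS (4.14 ± 0.18), and had a low at 6H (3.54). HFR1, a bHLH factor of far-red light, rose by 2.89 ± 0.19.

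Of the phytochromes, the red-light receptors, PHYD (-2.58 ± 0.18) and PHYE (-2.54 ± 0.13) fell, and PHYA, which triggers germination under very weak light, was at 8.92 at RP and 8.44 at DS (0.47 ± 0.11). PIL2 (PIF6), which has a seed-dormancy role, gave 3.42, 3.4 and 3.8 at RP, against 8.68, 8.56 and 8.52 at DS (-5.05 ± 0.17, adjusted p = 9.4e-16). PIL5 (PIF1), the phytochrome-interacting factor that represses germination in the dark, did not pass, at 7.72 at RP and 7.87 at DS (adjusted p = 0.41), and HY5 was at 7.64 at RP and 7.01 at DS (0.62 ± 0.14).

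Clock genes fell in 8 of 11 members and rose in 2 (median -1.59). The 2 that rose are the morning factors: LHY gave 8.42, 8.59 and 8.32 at RP, against 4.22, 4.45 and 3.24 at DS (4.47 ± 0.2, adjusted p = 9.6e-14), and CCA1 gave 6.85, 6.58 and 6.4 at RP, against 4.36, 4.35 and 4.45 at DS (2.22 ± 0.18, adjusted p = 4.6e-10). PRR9, with 4.31, 3.25 and 4.84 at RP, against 7.32, 7.29 and 7.17 at DS, varied among RP arrays and fell by 3.12 ± 0.39. GI (-2.55 ± 0.23), PRR5 (-2.12 ± 0.23) and TOC1 (-1.84 ± 0.1) fell. The labels give no hour of harvest, and the part of the time of day in these values was not tested.

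Auxin transport and root meristem genes rose in 11 of 26 members and fell in 3. AUX1, the uptake carrier, gave 9.39, 9.49 and 9.44 at RP, against 3.75, 4.25 and 4.26 at DS (5.35 ± 0.12, adjusted p = 8.0e-18). The efflux carriers PIN3 (3.49 ± 0.16) and PIN7 (3.48 ± 0.19) rose. The AP2 factors of the embryo and meristem AIL6 (-2.64 ± 0.17) and BBM (-1.34 ± 0.15) fell, as did NPH4 (ARF7), an auxin response factor (-1.39 ± 0.12). WOX5, of the quiescent centre, and PLT1 did not pass. WOX5 was at 3.63 at RP and near the floor at DS (3.2). PLT1 was at 3.99 at DS, 5.19 at 6H, 5.23 at TR and 4.31 at RP.

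Root hair genes, which serve the next stage, rose in 7 of 20 members, none fell, and 3 rose with median-centred arrays. MYB66 (WER), which specifies the hairless cells of the root epidermis, gave 8.42, 8.39 and 8.41 at RP, against 4.28, 4.28 and 3.24 at DS (4.47 ± 0.2, adjusted p = 4.9e-14). CSLD3 (2.82 ± 0.15) and RHD2, the NADPH oxidase of hair tips (2.17 ± 0.19), rose. RHD6 was just past the threshold (1 ± 0.22) and under it with median-centred arrays (0.61) or without DS replicate 3 (0.8). The hair expansin EXPA7 was at 3.98 at RP and 3.2 at DS (0.78 ± 0.18), and XTH13, XTH14 and RSL2 were near the floor at RP.

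Of 17 Polycomb genes and other repressors of embryonic traits 2 rose and 4 fell, close to the share called among all genes. The median was -0.05 in the deposited values and -0.45 with median-centred arrays. CLF, a histone methyltransferase, gave 7.54, 7.39 and 7.59 at RP, against 3.88, 4.49 and 3.77 at DS (3.46 ± 0.16, adjusted p = 9.6e-14), and VRN5 rose by 2.28 ± 0.13. RING1A gave 5.52, 5.79 and 5.86 at RP, against 9.31, 9.16 and 9.33 at DS (-3.54 ± 0.16, adjusted p = 9.6e-14), and RING1B (-2.99 ± 0.13) and TFL2 (LHP1, -1.78 ± 0.14) fell with it. FIE was at 6.89 at RP and 5.97 at DS (0.91 ± 0.11), and MSI1 and HSL1 did not pass.

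Transcription factor families grouped by name had members at both ends. Homeobox genes rose in 28 of 94 and fell in 10. WOX2, of early embryo patterning, gave 3.22, 3.27 and 3.26 at RP, against 10.19, 10.09 and 10.22 at DS (-6.92 ± 0.17, adjusted p = 2.2e-17), and HB31 rose by 5.1 ± 0.19. WRKY factors rose in 20 of 71 and fell in 11 (WRKY65 4.02 ± 0.14, WRKY32 -3.28 ± 0.14). NAC factors rose in 17 and fell in 18 of 85 (NAC047 4.9 ± 0.2, NAC060 -5.87 ± 0.17). These shares, 20.0% and 21.2%, were near the 20.5% and 17.4% of all genes tested. MYB factors rose in 17 and fell in 15 of 132 (MYB34 4.64 ± 0.17, MYB3R-3 -2.35 ± 0.12), or 12.9% and 11.4%, below the shares of all genes. For bZIP factors there were 6 rises and 10 falls among 41 (BZIP61 4.74 ± 0.14, bZIP23 -2.83 ± 0.2). MADS-box factors had 4 rises and 12 falls among 98 (AGL102 3.04 ± 0.16, AGL67 -4.95 ± 0.23).

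For the median gene most of the net change was complete at testa rupture. The median level of the genes that rose was 4.44 in dry seed, 5.9 at 6H, 6.9 at TR and 7.1 at RP, and that of the genes that fell was 7.29, 6.29, 5.33 and 5.15. The median gene that rose had made 50.7% of its net change at 6H and 93.4% at TR, and the median gene that fell 52.5% and 93%. At 6H, 1187 genes of the eventual rises (20.9%) stood below their dry-seed level, as did ELIP1 and CYP707A1, and 412 of the eventual falls (8.53%) stood above it, as did ABI3. These figures share the DS and RP arrays with the comparison that chose the genes and are a description.

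**Figure D4:**
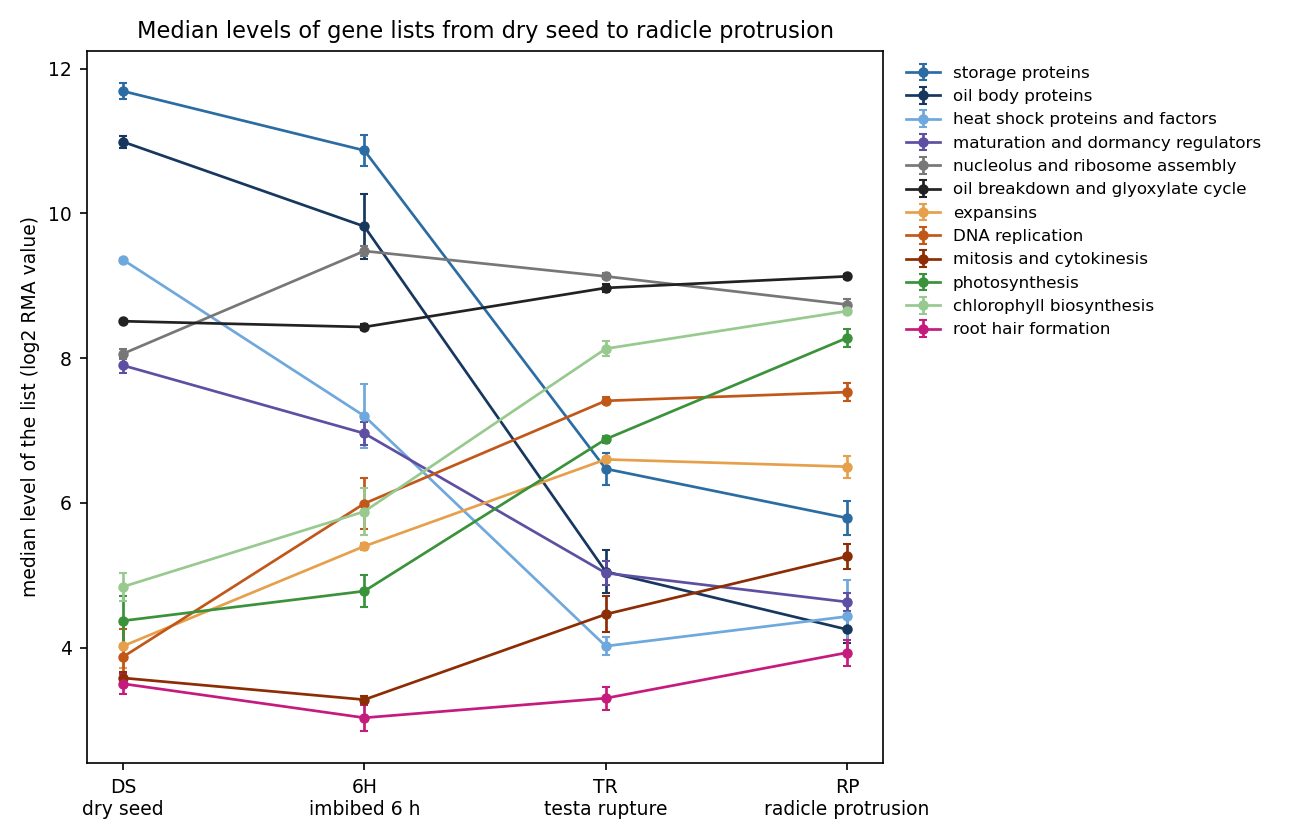
Median level of 12 gene lists (log2 RMA value, mean of the 3 array medians, error bars SD) at DS, 6H, TR and RP. Storage and oil body lists stay high at 6H and drop at TR, the nucleolus list peaks at 6H (9.48), and the photosynthesis, mitosis and root hair lists are highest at RP.

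The end points hide genes that changed and came back. A total of 648 genes (2.33%) were at least 2-fold higher at 6H than at both DS and RP with a net change under 2-fold, and 199 (0.716%) were lower. At TR such genes numbered 30 (0.108%) above and 25 (0.09%) below. The highest of the first kind included IAA33, an auxin repressor family member (3.28 at DS, 7.38 at 6H, 4.13 at TR and 3.83 at RP), SIAR1, an amino acid exporter (3.32, 6.38, 3.79 and 3.15) and MAN7, described above. Of the lists, GAI, RGL2 and GA3OX4 of the GA pathway, PIF4, and PUM24, RID2 and EDA25 (SWA2) of the nucleolus were high at 6H in this sense. The converse held for ABCI21 (8.16 at DS, 3.65 at 6H, 7.26 at TR and 8.08 at RP), STZ, a zinc-finger factor of stress responses (9.22, 4.68, 7.9 and 8.39), SEN1, a gene of darkness and senescence (8.42, 5.05, 7.26 and 8.29), and F3H, of flavonoid synthesis (7.12, 4.43, 7.02 and 7.09).

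The seed holds tissue other than the embryo, and markers of these tissues were read beside the changes above. Of 10 endosperm markers 2 fell and none rose, and 9 were near the floor at RP and 5 at DS. EPR1, an extensin-like gene of the germinating endosperm, gave 9.46, 9.26 and 9.23 at RP, against 11.77, 12.02 and 11.8 at DS (-2.55 ± 0.19, adjusted p = 1.6e-10), and AGL62, of the young endosperm, changed by -1.65 ± 0.21 to near the floor. Summed on the linear scale the list gave 663 to 771 at RP and 3580 to 4247 at DS, and EPR1 makes up most of both. Of 15 seed coat markers 3 rose (20.0%) and 2 fell (13.3%), or 2 and 5 with median-centred arrays. Of these markers 8 were near the floor at RP and 5 at DS. Their sum was 711 to 732 at RP and 600 to 631 at DS. MUM2 (3.8 ± 0.13), TTG2 (1.81 ± 0.16) and MUM4 (1.03 ± 0.13), which also act outside the coat, rose, and PMEI6 (-2.3 ± 0.18) and PRX36 (-1.1 ± 0.17) fell. MUM4 (0.98) was under 2-fold without DS replicate 2 and PRX36 (-0.91) without RP replicate 3, and the pigment gene BAN was at 2.8 at RP and 3.62 at DS. RMA values have no zero, so the near-floor count stands for absent markers. The part of tissue proportions in the changes of other genes was not tested.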

How the data were processed

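The authors deposited 1 table of log2 values for 35986 probe sets on 21 arrays. The submitters' processing notes name RMA (background correction, quantile normalization and a summary of probes), and its version, the array platform and the annotation release are not given in the sources used here. Per the labels, 50 ng of RNA was amplified and labelled with biotin. The number of arrays limits the precision. Where a locus had several probe sets (5818 loci) their mean was used. Leaving out 215 probe sets whose values were the same for more than 1 locus on every array removed 192 loci, and 27789 were tested. Names came from the RefSeq table of assembly TAIR10.1 (27175 loci matched, 10537 with a symbol), with synonyms in brackets. The probe sets' build is not stated, so no coordinates are given, and promoter and protein sequences were not used here.

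With limma 3.58.1 in R 4.3.3, stage means were fitted to the 21 arrays together (14 residual degrees of freedom), and RP minus DS was tested 2-sided. The procedure was tested on simulated data in which a small share of loci changed at RP and all stages otherwise had equal means. That simulation does not bear on how arrays of different stages are scaled. The 32 lists held 611 genes, of which 580 were measured, 29 were left out for lack of a name in the table and 2 had no probe set of their own. The text names genes by a rule: the 12 largest rises and falls with arrays apart, per list the 3 largest rises and falls that passed the adjusted p and the 2 largest changes that did not, the extremes of each name-based class, and a set of known germination genes. Some further list members, such as GID1B, XTH15, PYL7 and ABI1, are named outside this rule. The comparison, members, lists and rule were chosen with earlier results of these data known. The name-based classes were trimmed from 38 to 18 after their values were seen, because some patterns matched clone names or unrelated genes, so they are descriptions. Same-numbered DS and RP arrays had deviations that correlated at 0.035, 0.151 and -0.044, so numbers were not treated as pairs. Alternatives were other normalizations and centrings, a filter on dim loci, the brightest probe set, a fit on 6 arrays, a trended prior, array weights, a replicate term, other fold thresholds and each array left out. A few list members are counted but not reported here by name.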

Additional observations from a re-analysis of the deposited data

How the results depend on the processing

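The counts of 5692 rises and 4829 falls moved by over 1.5 times under 2 kinds of choice. Falls numbered 7873 when arrays were centred on the all-gene median and 7573 when they were centred on the reference genes, because centring shifts every change downward. With no fold threshold 8820 rose and 11335 fell, at a threshold of 1.5 on the log2 scale 2887 fell, and at 2 there were 2710 rises and 1767 falls. Leaving out each array in turn gave 5601 to 5744 rises and 4792 to 4984 falls. Leaving out dim loci (20811 tested) gave 5685 and 4742, and the replicate block gave 5692 and 4829 and changed no other call. Genes high at 6H with no net change numbered 397 with median-centred arrays.

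Signs turned in 21 of 276 named genes, and 0 of these had been called. Some genes named outside the rule, such as GID1B and XTH15, were not among the 276. With arrays centred on the median of all genes and then on the reference genes, changes that had been at or just above 0 became -0.2 and -0.18 (ICL), -0.07 and -0.04 (PIP2E), -0.08 and -0.06 (PLT1), -0.09 and -0.07 (TUB2), -0.14 and -0.11 (CYCB2;1), -0.21 and -0.18 (CYCD7;1), -0.24 and -0.21 (NAP57), -0.24 and -0.22 (CAB2), -0.27 and -0.24 (MSI1), -0.28 and -0.25 (HSL1), -0.31 and -0.28 (EDA25), -0.33 and -0.3 (RBR1), -0.37 and -0.34 (ORC1A), and -0.37 and -0.34 (PIL6), and -0.03 for LHCA1 with the first. The medians of the antioxidant list became -0.11 and -0.09 and those of the nucleolus list -0.34 and -0.31. Quantile normalization gave HSL1 -0.01, ORC1A -0.02, PIL6 -0.01, COR15B 0.17 and CYP707A4 0.04. The brightest probe set gave CAT2 0.06, and array weights gave PIL6 -0.07. Leave-one-out changes ran between -0.08 and 0.12 for PIL6, -0.1 and 0.01 for CAT2, -0.22 and 0.08 for KU80, -0.17 and 0.01 for COR15B, -0.23 and 0.01 for AGAL1, and -0.45 and 0.04 for XTH14. Genes that rose but were under 2-fold with median-centred arrays included PIMT1 (0.89), EMB3010 (0.82), CYCB1;1 (0.75), ERD14 (0.73), ACX2 (0.71), MUM4 (0.64) and RHD6 (0.61). There were others, since 2 of the 6 rises of the oil breakdown list were left in that setting. Signal near the floor limits what can be said of genes with values there. An alternative chosen after seeing the data kept the 29 listed loci without a name, of which 6 rose and 16 fell. It added a rise to lists that had none for oil bodies and heat shock, and gave 8 rises among 15 proteases, 6 among 12 low-oxygen genes and 4 among 20 nucleolus genes.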

Other observations

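Families of secondary metabolism and detoxification, grouped by name, changed in both directions. Of 232 cytochrome P450 enzymes 49 rose (21.1%) and 42 fell (18.1%), close to the 20.5% and 17.4% of all genes tested. CYP83B1, of indole glucosinolate synthesis, gave 9.82, 9.86 and 9.78 at RP, against 3.9, 4.79 and 3.08 at DS (5.89 ± 0.28), and CYP71A26 gave 2.61, 2.71 and 3.35 at RP, against 9.73, 9.29 and 9.65 at DS (-6.67 ± 0.2). Of 45 glutathione S-transferases 14 rose (31.1%) and 9 fell (20.0%), with GSTU27 at 5.4 ± 0.14 and GSTF3 at -5.5 ± 0.29. Of 55 UDP-glycosyltransferases 15 rose (27.3%) and 19 fell (34.5%), with UGT74D1 at 4.71 ± 0.15 and UGT85A5 at -3.66 ± 0.17. Among 64 beta-xylosidases, beta-glucosidases and beta-galactosidases 20 rose and 9 fell, and these families held both the largest fall over all genes (BGLU19) and 3 of the 12 largest rises (BXL2, BXL1 and BGLU21). Of 11 lipid transfer proteins 5 rose and none fell, with LP1 at 5.13 ± 0.28, and 6 of 11 tRNA synthetases rose and 1 fell (NS2 2.52 ± 0.14, RNL -1.9 ± 0.1, the second a ligase that the name pattern also took in).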
